A study of Bos taurus with 32 samples.

Results

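The microRNAs (miRNAs) best known from striated muscle were followed in bovine fat: bta-miR-1, bta-miR-206, bta-miR-133a, bta-miR-133b and bta-miR-499. These 5 were chosen by name, beside 667 other miRNAs on the array, and all 5 were detected on at least 1 array. Total RNA came from backfat, the subcutaneous depot, and from perirenal fat, the visceral depot, of yearling Hereford × Aberdeen Angus steers on a control diet or on a high fat diet, in which flaxseed supplied the additional fat. There were 4 groups of 8 arrays, control subcutaneous, control visceral, high fat subcutaneous and high fat visceral, with 1 array per sample and both depots taken from each of 16 steers. The study asked whether miRNA expression differs between these depots and whether dietary fat alters it.

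A miRNA is a short RNA that binds messenger RNAs through its 5′ end, the seed, and represses them. miR-1 and miR-206 share a seed and miR-133a and miR-133b have almost the same sequence, so their probes may not fully separate the members of each pair. miR-1 promotes differentiation of skeletal and heart muscle, miR-133a and miR-133b are made from the same transcripts as miR-1 or miR-206 and are known for a role in myoblast growth, miR-206 is the form typical of skeletal muscle, and miR-499 is encoded within a myosin gene of slow muscle and heart. miR-133 is also known in fat, as a repressor of the brown fat regulator PRDM16. In the RefSeq gene table of cattle (assembly ARS-UCD2.0), MIR1-1 was next to MIR133A-1, MIR1-2 next to MIR133A-2 and MIR206 next to MIR133B, with 0 genes between the members of each pair, while MIR499 stood apart, beside MYH7B.

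Arrays differed in brightness by diet. Summed over all miRNAs, the intensity of a control array lay between 26021 and 79290 and that of a high fat array between 96888 and 366714, a ratio of 5.42 between the medians. The lowest intensity that an array could call detected was similar (1.79 to 5.11 and 1.73 to 5.26), so that after scaling the log2 detection limit of control arrays was -7.34 to -4.91 and that of high fat arrays -10.04 to -6.90. Each group was hybridized on a slide of its own and each diet was scanned in its own session, so group and slide, and diet and session, cannot be told apart. The subcutaneous array of control steer 108 stood apart by bta-miR-196a, a miRNA of the visceral depot here: its scaled log2 level was -2.43, against at most -6.04 on the other control subcutaneous arrays and -2.73 to -1.68 on the control visceral arrays. Leaving it out changed none of the counts of called muscle miRNAs by level.

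Detection separated the 5 miRNAs into 2 kinds. Muscle miRNA signal was common on the high fat diet for miR-1, miR-133a and miR-133b, and miR-206 and miR-499 were seen on single arrays. miR-1, miR-133a and miR-133b were all called detected on 8 of 8 high fat subcutaneous arrays and on 6 of 8 high fat visceral arrays, against 0 and 1 of 8 on the control diet. No member was detected on 5 control subcutaneous and 4 control visceral arrays, while each high fat array held at least 2. High fat arrays detected more miRNAs of any kind, 228 to 254 in subcutaneous and 169 to 259 in visceral fat. Control arrays detected 118 to 176 and 115 to 166. Fisher's exact test called 43.3 percent of 171 miRNAs detected on more high fat arrays in subcutaneous fat. In visceral fat it called 21.2 percent of 189.

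**Figure D1:**
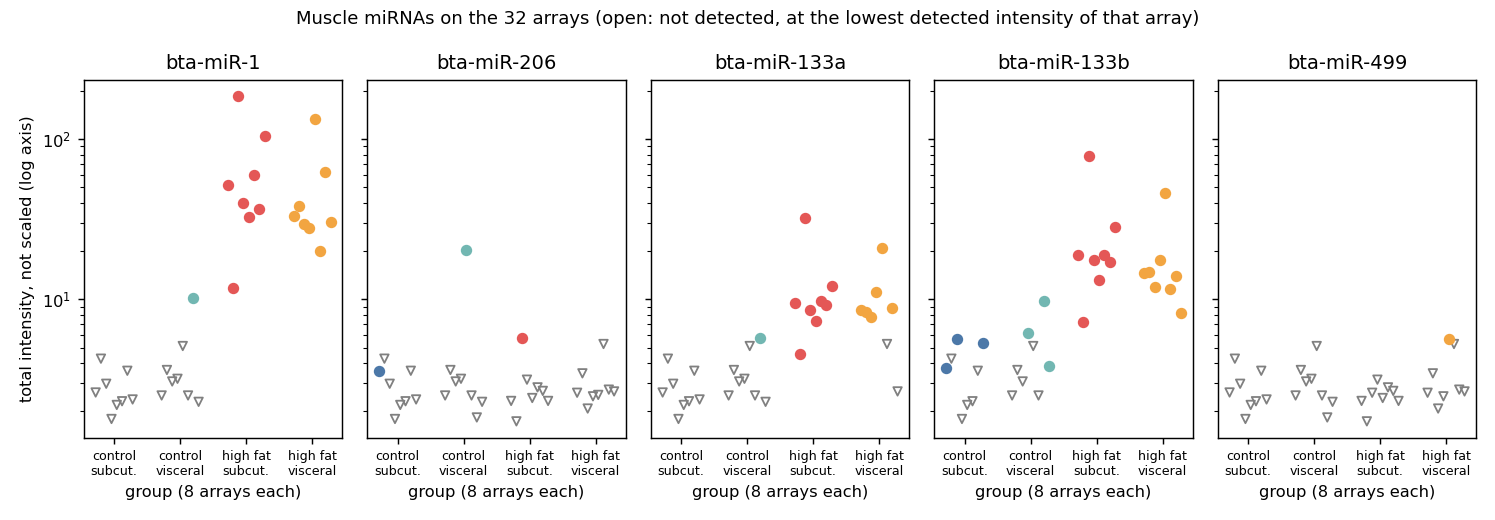
Total intensity of each muscle miRNA on every array, not scaled, on a log axis, with the 8 arrays of each group in order of steer number; filled points are detected, open triangles mark arrays where the miRNA was not detected and stand at the lowest intensity detected on that array. miR-1 was detected on all 16 high fat arrays, from 11.7 to 186, and on 1 control array at 10.2, while miR-206 was detected on 3 arrays and miR-499 on 1.

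miR-1 was measured in every high fat sample and in almost no control sample. In high fat subcutaneous fat its intensity was 11.7 at the lowest, 45.9 at the median and 186 at the highest. In high fat visceral fat it was 20.1, 31.8 and 133. In control visceral fat it was detected on the array of steer 405, at 10.2, and in control subcutaneous fat on 0 of 8 arrays. No control array reached the lowest high fat array. The array carries 2 probes for miR-1, and the total signal of the brighter one was 0.0848 to 3.1 in control subcutaneous fat and 11.7 to 169 in high fat subcutaneous fat.

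The diet difference of miR-1 was larger than the SD between high fat steers in both depots. It was smaller than the range of those steers in subcutaneous fat, where their scaled log2 levels ran from -6.82 to -2.83. In subcutaneous fat the scaled log2 level of high fat steers was -5.21 ± 1.23 (SD, n = 8), while every control array was at the common floor of -7.22. The levels differed by 2.01 (SE 0.392, 95% confidence interval 1.21 to 2.81, limma adjusted p = 3.43e-05), and the groups did not overlap. As every control array is at the floor, with an SD of 0, this SE and interval rest on a set value rather than on a measured control level. miR-1 passed the minimum of 8 detected arrays through the high fat diet, which held 16 of its 17 detections. Of 233 miRNAs tested in subcutaneous fat, 41.6 percent were called higher in high fat steers, 34.3 percent lower, and 33.0 percent were higher without overlap, so miR-1 was 1 of many. In visceral fat the high fat steers had a level of -4.68 ± 0.482 and the control steers one of -6.89 ± 0.930, with 7 of 8 control arrays at the floor. This was a difference of 2.21 (SE 0.392, 95% confidence interval 1.41 to 3.01, limma adjusted p = 7.76e-06), beside 42.1 percent of 233 miRNAs called higher and 29.6 percent lower. The groups overlapped in visceral fat through control steer 405 alone, whose level of -4.59 lay above the high fat median of -4.84. In these tissue samples, fewer cells of a type and less RNA per cell cannot be told apart.

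Because the floor sets the level of an undetected array, the difference was also bounded from the arrays' own detection limits. With each undetected control array at that limit, or at the signal of the miRNA's own probes where that was higher, the scaled miR-1 level of high fat steers was at least 2.44-fold higher in the subcutaneous depot. In visceral fat it was at least 2.04-fold higher, where 1 of 8 control arrays had measured it. Without scaling the same bounds were 18.3-fold and 10.9-fold. The call was lost when arrays were scaled to the percentile over every miRNA on the array, detected or not (differences of 1.26 and 0.91, limma adjusted p = 0.0804 and 0.227) and, in the subcutaneous depot, by the methods' t-test after Bonferroni correction, and the direction turned with normexp background correction (-1.66 and -1.25). On those scales, however, the median of all miRNAs in the fit moved too, by -2.39 and -1.86 with that percentile and by -1.79 and -1.49 with normexp. Relative to that median, miR-1 of high fat steers was above that of control steers by 0.13 in subcutaneous and 0.25 in visceral fat with normexp, and by 3.65 and 2.77 with the percentile over every miRNA, against 1.91 and 2.05 in the scaling used here. Most control arrays detected too few miRNAs for the percentile over every miRNA to fall on a detected one. They were divided by the set value of 0.1, and high fat arrays by a measured signal. The values with that percentile therefore rest on a set value and decide nothing about miR-1.

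**Figure D2:**
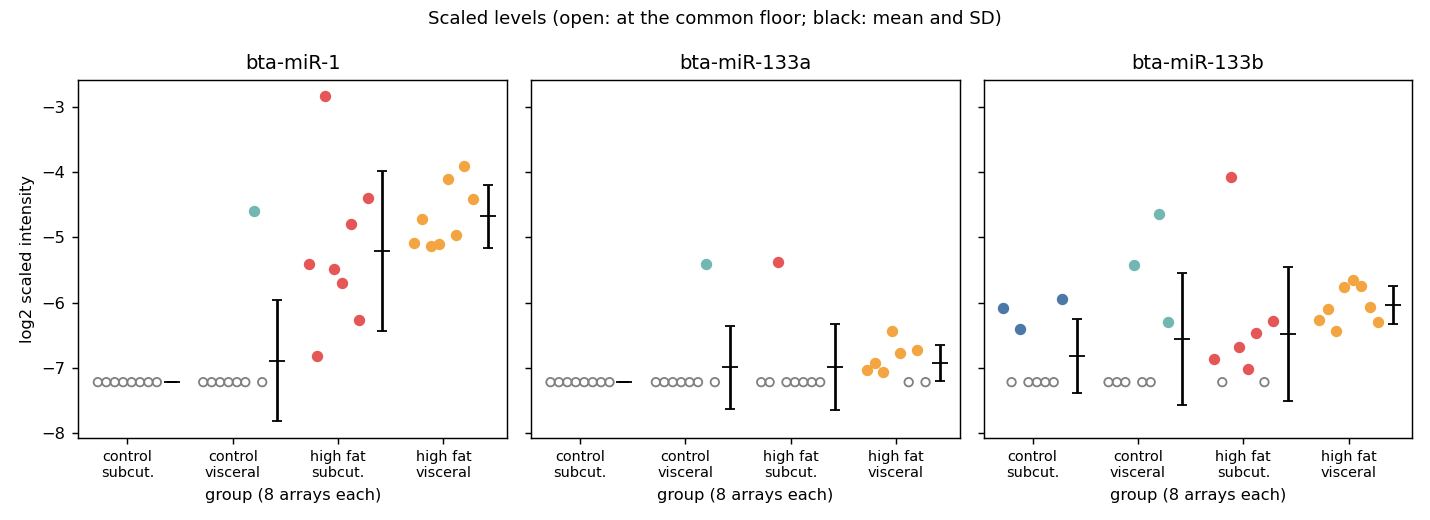
Scaled log2 intensity of miR-1, miR-133a and miR-133b on the 8 arrays of each group, ordered by steer number; open circles are arrays at the common floor of -7.22, and black bars are the mean and SD of the group. The miR-1 points of the high fat diet lie between -6.82 and -2.83, whereas 15 of the 16 control arrays are at the floor.

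miR-133b was the member detected on most control arrays. In control subcutaneous fat it was detected on 3 of 8 arrays, at 3.71, 5.31 and 5.66 (steers 108, 410 and 209), and in control visceral fat on 3 of 8, at 3.82, 6.19 and 9.80 (steers 410, 211 and 405). On the high fat diet it was detected on all 16 arrays, from 7.20 through a median of 18.2 to 78.9 in subcutaneous fat and from 8.24 through 14.3 to 45.8 in visceral fat. Steer 410 was the control animal with miR-133b in both depots.

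After scaling, the miR-133b level did not pass the test for diet in either depot. It was -6.82 ± 0.570 and -6.48 ± 1.03 in subcutaneous fat of control and high fat steers (difference 0.34, 95% confidence interval -0.44 to 1.12, limma adjusted p = 0.427) and -6.56 ± 1.01 and -6.04 ± 0.294 in visceral fat (difference 0.52, 95% confidence interval -0.26 to 1.30, limma adjusted p = 0.231). Without the visceral and subcutaneous arrays of control steer 405, the visceral difference was 0.79 and passed the test (limma adjusted p = 0.0486). Without high fat steer 202, the subcutaneous difference was 0.00. With the undetected control arrays at their limits, the subcutaneous and visceral differences were -0.69 and -0.82, so neither depot gave a lower bound for a rise.

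miR-133a, which like miR-1 comes from a pair of gene copies, was near the detection limit on many arrays. It was detected in high fat subcutaneous fat on 8 arrays, at 4.56, 9.38 and 32.1 (lowest, median and highest), in high fat visceral fat on 6 arrays, at 7.77, 8.67 and 21.0, and on the control array of steer 405 in visceral fat, at 5.74. The 2 high fat visceral arrays without it were those of steers 303 and 412, which with steer 411 had the lowest labelling spike-ins of their group. Although detected on all 8 high fat subcutaneous arrays, scaled miR-133a was under the floor and set to it on 7 of them, because the floor of -7.22 lay above their detection limits. Its diet differences were 0.23 in subcutaneous fat (95% confidence interval -0.25 to 0.71, limma adjusted p = 0.377) and 0.07 in visceral fat (-0.41 to 0.55, limma adjusted p = 0.838). The subcutaneous value came from steer 202, the only array of either diet above the floor there, and was 0.00 without it. With the control arrays at their limits it was -1.62.

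The number of arrays that detected a miRNA was tested apart from its level. In subcutaneous fat, miR-1 and miR-133a were each detected on 8 of 8 high fat and 0 of 8 control arrays (Fisher's exact test, two-sided, adjusted p = 0.000648, the raw p of 0.000155 being the smallest possible for 8 against 8). Of 171 miRNAs tested there, 43.3 percent were detected on more high fat than control arrays past the threshold, and 6.1 percent of all miRNAs on the array showed the same 8 against 0. miR-133b, at 8 against 3 arrays, did not pass (Fisher's exact test adjusted p = 0.0522). In visceral fat miR-1 passed at 8 against 1 array (Fisher's exact test adjusted p = 0.00912), where 21.2 percent of 189 miRNAs did, and miR-133a at 6 against 1 and miR-133b at 8 against 3 did not (adjusted p = 0.118 and 0.0769, Fisher's exact test).

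These detection counts depended on the call. With the deposited normalized value above 0 as the call, miR-1 was present on 7 of 8 high fat and 0 of 8 control subcutaneous arrays, and miR-133a on 1 and 0. By the same call miR-133b was present on 1 high fat and 3 control subcutaneous arrays. In visceral fat that call gave 8 against 1 arrays for miR-1, 0 against 1 for miR-133a and 5 against 3 for miR-133b. Of the 3 miRNAs, miR-1 alone was present on more high fat than control arrays in both depots by each of the 3 calls tried. Where a probe well above background was the call, miR-1 was present on 8 against 2 visceral arrays and did not pass (Fisher's exact test adjusted p = 0.0981). The part of array brightness in the diet differences was not tested apart from diet, since each diet had its own slides.

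**Figure D3:**
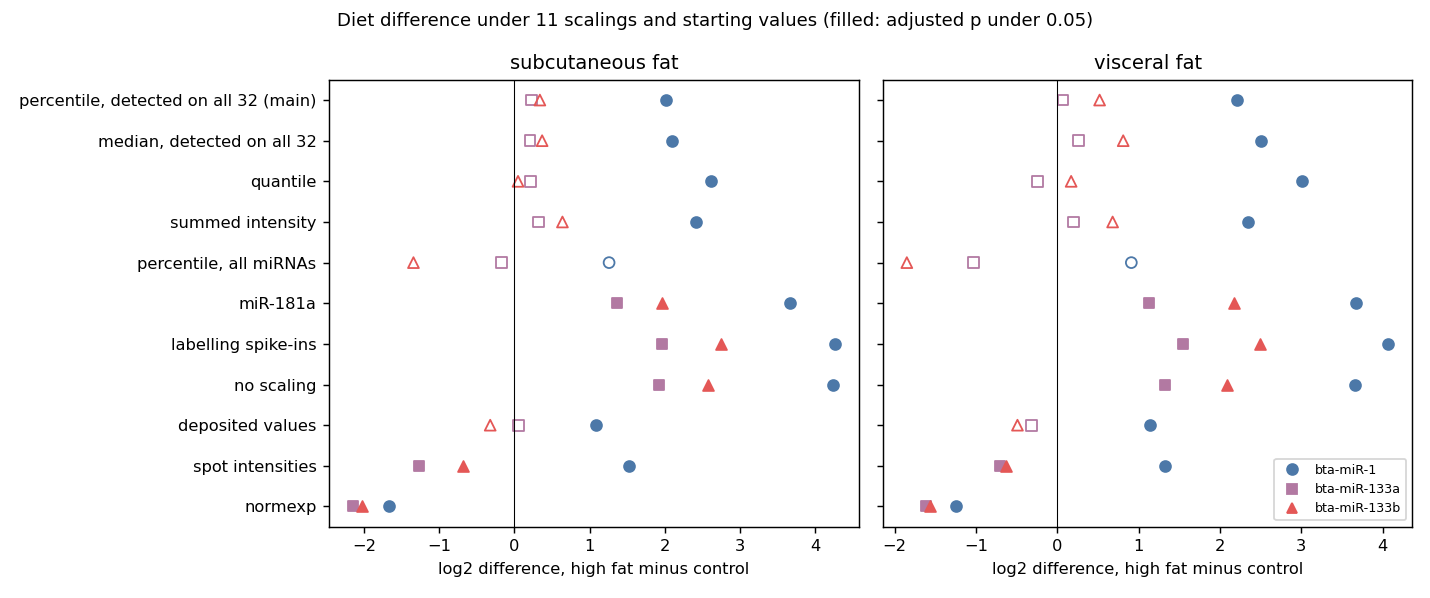
Log2 difference of the high fat minus the control diet in each depot for miR-1, miR-133a and miR-133b under 11 scalings and starting values, one per row; filled symbols have an adjusted p under 0.05. miR-1 lies to the right of 0 in all but the normexp row (-1.66 and -1.25), while miR-133a and miR-133b lie on both sides of 0. In the row of the percentile over all miRNAs, most control arrays were divided by a set value, not a measured one.

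Unscaled, or scaled to the labelling spike-ins or to bta-miR-181a, all 3 miRNAs were called higher in high fat steers in both depots. Without scaling the differences in subcutaneous fat were 4.23 for miR-1, 1.93 for miR-133a and 2.58 for miR-133b, and in visceral fat 3.66, 1.33 and 2.08. The median of all miRNAs in that fit was 2.41 and 1.63. Relative to this median miR-1 was higher by 1.82 and 2.03 and miR-133b by 0.17 and 0.45, while miR-133a was at -0.48 and -0.30. Starting from single spot intensities, miR-133a (-1.26 and -0.70) and miR-133b (-0.68 and -0.63) were called lower and miR-1 higher (1.52 and 1.32). The median of all miRNAs in that fit was -0.31 and -0.48, relative to which miR-133a was at -0.95 and -0.21, miR-133b at -0.37 and -0.14 and miR-1 at 1.83 and 1.80. The sign of the miR-133a and miR-133b differences thus changed with the scaling, and that of miR-1 turned with normexp.

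Between depots no muscle miRNA passed the test on either diet. On the control diet the visceral minus subcutaneous differences were 0.33 for miR-1 (95% confidence interval -0.47 to 1.13), 0.23 for miR-133a (-0.25 to 0.70) and 0.26 for miR-133b (-0.53 to 1.04), with limma adjusted p of 0.743, 0.672 and 0.810. The miR-1 and miR-133a values both came from the visceral array of steer 405, and were 0.00 without that steer. Every other control array was at the floor for both, and miR-133b was at it on 5 of 8 control arrays in each depot. Levels set to the floor can hardly show a depot difference. On the control diet 6.87 percent of 233 miRNAs were called higher and 12.0 percent lower in visceral fat, 62 having an unadjusted p under 0.05. On the high fat diet the differences were 0.54 for miR-1 (-0.26 to 1.34), 0.06 for miR-133a (-0.42 to 0.54) and 0.44 for miR-133b (-0.35 to 1.22), with limma adjusted p of 0.355, 0.891 and 0.470, where 11.6 percent of miRNAs were called higher and 14.6 percent lower, 88 having an unadjusted p under 0.05. miR-1 was higher in visceral fat in 5 of 8 high fat steers and miR-133b in 6 of 8. Detection did not pass between depots for any member by Fisher's exact test, which does not pair the depots of a steer. By that test 0 of 115 miRNAs passed on the control diet (7 with an unadjusted p under 0.05) and 3.85 percent of 130 were detected on fewer visceral arrays on the high fat diet.

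The depot comparison on the high fat diet depended on steer 202. Without it, miR-1 was higher in visceral fat by 0.94 (limma adjusted p = 0.0489), and miR-133b was higher by 0.84 without passing (limma adjusted p = 0.0621). This steer had the highest miR-1 of its group in subcutaneous fat (-2.83) and the lowest in visceral fat (-5.13). Spot intensities called miR-133a and miR-133b higher in visceral fat (0.81 and 0.83), and normexp called all 3 higher (0.69 for miR-1, 0.79 for miR-133a and 0.76 for miR-133b). The median of all miRNAs was 0.05 with spot intensities and 0.60 with normexp, which leaves 0.76 and 0.78 for miR-133a and miR-133b with spot intensities, and 0.09, 0.18 and 0.15 for miR-1, miR-133a and miR-133b with normexp. The depot difference on the high fat diet minus that on the control diet was 0.21 for miR-1, -0.16 for miR-133a and 0.18 for miR-133b, and none passed (limma adjusted p = 0.923 to 0.954, beside 1.72 percent of 233 miRNAs called and 28 with an unadjusted p under 0.05). The control levels in this contrast were mostly at the floor, and miR-133a was at it on 7 of 8 high fat subcutaneous arrays too. A difference between the diets in how the depots compared was not detected, but levels set to the floor can hardly show one.

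Steers differed more in these miRNAs than in almost any other in high fat subcutaneous fat. Among the 213 miRNAs detected on all 8 arrays of that group, the SD of the scaled log2 level ranked 1 for miR-1 (1.23), 2 for miR-133b (1.08) and 4 for miR-133a (0.917), with bta-miR-223, a miRNA of myeloid cells, at rank 3 (1.01). The median SD of the 213 was 0.270, and that of the 111 miRNAs with a median intensity under 100 was 0.367. From the lowest to the highest steer, miR-1 spanned 15.8-fold, miR-133b 10.9-fold and miR-133a 7.40-fold. Without scaling the ranks of miR-1, miR-133b and miR-133a were 1, 3 and 6.

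Much of this spread lay in steer 202. Its array was 6.12-fold over the group median for miR-1, 6.51-fold for miR-133b and 5.32-fold for miR-133a, while its summed intensity of 180486 was at rank 7 of the 8. Without it the SD of miR-1 was 0.823, at rank 2 of the 213, whereas that of miR-133b was 0.454 (rank 49) and that of miR-133a 0.320 (rank 87). The spread of miR-1 beyond that array ran from -6.82 in steer 109 to -4.40 in steer 412. In visceral fat of the same steers, the SD was 0.482 for miR-1, at rank 37 of 159 miRNAs, and 0.294 for miR-133b, at rank 105, near the median of 0.355.

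**Figure D4:**
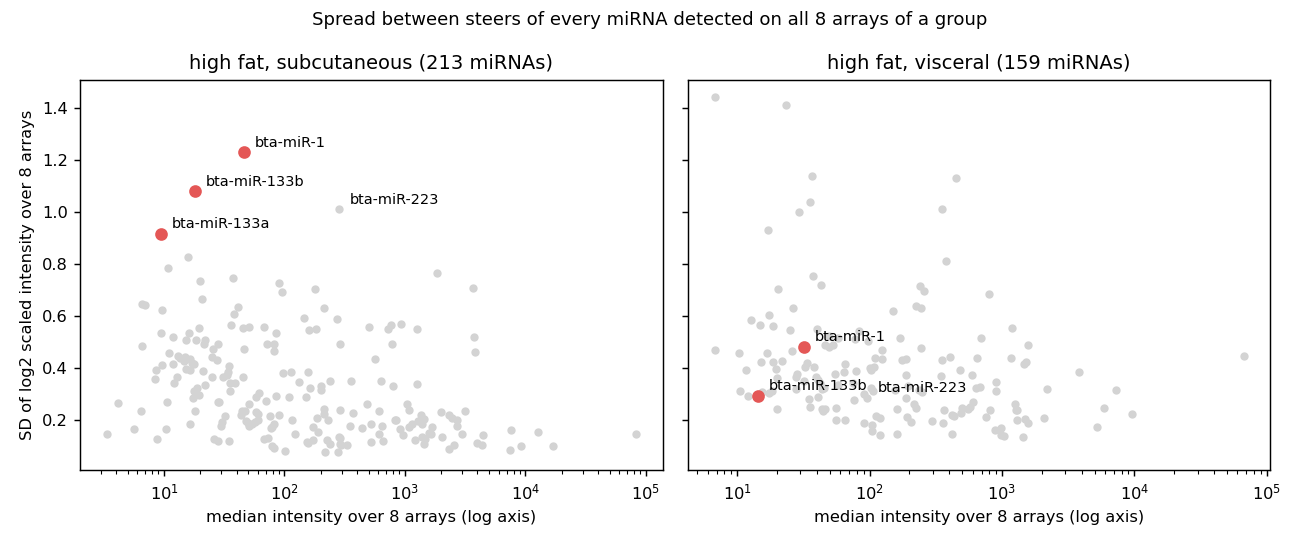
SD of the scaled log2 intensity between the 8 steers of a group (vertical axis) against median intensity (log axis) for every miRNA detected on all 8 arrays, 213 in high fat subcutaneous and 159 in high fat visceral fat; muscle miRNAs are red and bta-miR-223 is named for comparison. In subcutaneous fat the muscle miRNAs rank 1, 2 and 4 by SD (1.23, 1.08 and 0.917); in visceral fat miR-1 (0.482) and miR-133b (0.294) lie among the rest.

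The 3 miRNAs varied together across the steers of the high fat subcutaneous group. The level of miR-1 correlated with that of miR-133b (Pearson r = 0.959, exact permutation p = 9.92e-05, adjusted over 6 relations 0.000595, Spearman rho = 0.976, exact permutation p = 0.000397, adjusted 0.00238, n = 8) and with that of miR-133a (r = 0.927, exact permutation p = 0.00104, adjusted 0.00208, rho = 0.929, exact permutation p = 0.00223, adjusted 0.00446). miR-133a and miR-133b, whose probes may read each other's target, had r = 0.992 (exact permutation p = 0.000446, adjusted 0.00134, rho = 0.952, exact permutation p = 0.00114, adjusted 0.00342). These relations did not rest on steer 202. Without the 2 steers farthest from the median of the first miRNA of each pair, steer 202 and steer 109 or 411, r was 0.971, 0.922 and 0.958.

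The same was not seen in visceral fat. There miR-1 and miR-133b had r = 0.225 (exact permutation p = 0.571, adjusted 0.571, rho = 0.381, exact permutation p = 0.360, adjusted 0.360, n = 8), and r = -0.173 without the 2 steers farthest from the median. Nor did a steer's level in one depot follow that in the other: r between subcutaneous and visceral fat was -0.435 for miR-1 (exact permutation p = 0.264, adjusted 0.317, rho = -0.548, exact permutation p = 0.171, adjusted 0.256) and -0.507 for miR-133b (exact permutation p = 0.183, adjusted 0.274, rho = -0.429, exact permutation p = 0.299, adjusted 0.359). Without the 2 steers farthest from the median these were -0.419 and -0.122. Whether r differed between the depots was not tested.

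**Figure D5:**
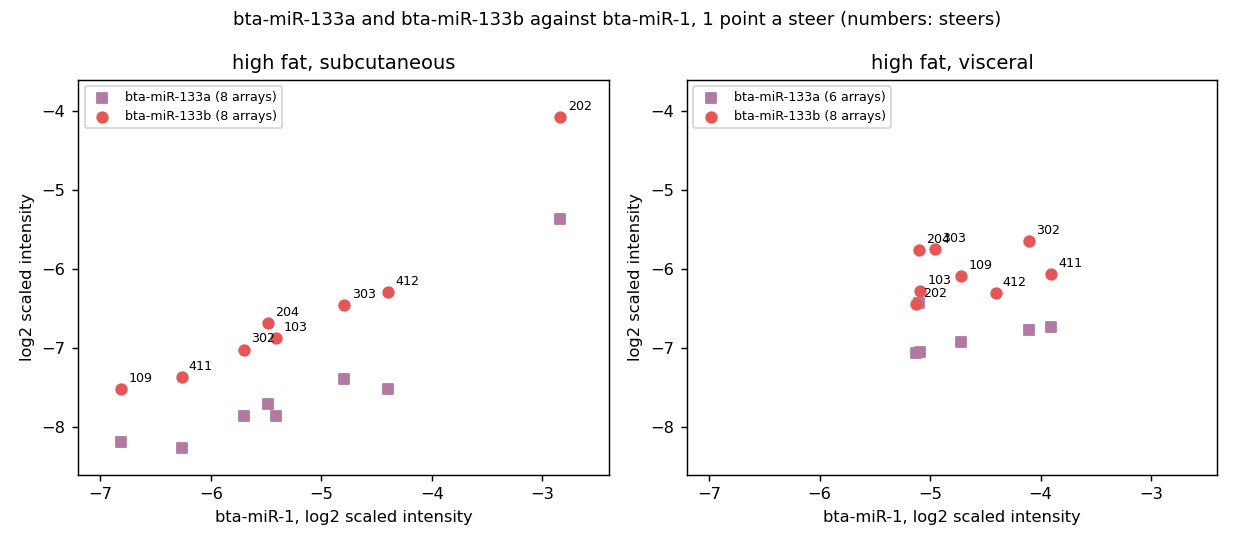
Scaled log2 intensity of miR-133a (squares) and miR-133b (circles, labelled with the steer) against miR-1 in the 8 high fat steers, in subcutaneous fat (left) and visceral fat (right), for arrays where both were detected. In subcutaneous fat both rise with miR-1 (r = 0.927 and 0.959) with steer 202 at the upper end; in visceral fat miR-133b does not follow miR-1 (r = 0.225).

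Over all 32 arrays, after the group means were subtracted, the miRNA most like miR-1 among 189 candidates, which had to be detected on at least 16 arrays, was miR-133b (r = 0.758), followed by bta-miR-19a (0.503) and bta-miR-21 (0.462). Those most like miR-133b were miR-1 (0.758), bta-miR-17-5p (0.683) and bta-miR-362-5p (0.653). miR-133a, detected on 15 arrays and above the floor on 8, was not a candidate, and its r over the same residuals was 0.809 with miR-1 and 0.776 with miR-133b. These values are descriptions over arrays that share a scaling factor and a floor.

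The array held 3 other miRNAs listed for striated muscle. Of these, bta-miR-208a and bta-miR-208b, which are encoded in the heart and slow myosin genes, were detected on 0 of 32 arrays. bta-miR-486, which is abundant in muscle and also in red blood cells, was detected on all 32 and went the other way with diet, by -2.61 in subcutaneous and -2.56 in visceral fat (limma adjusted p = 8.32e-16 and 1.44e-15). This direction depended on the scaling: without scaling the differences were 0.30 and -0.14 (limma adjusted p = 0.238 and 0.606), beside a median of all miRNAs of 2.41 and 1.63, and with the labelling spike-ins they were 0.55 and 0.32 (limma adjusted p = 0.0284 and 0.218). The summed scaled intensity of this list was 0.109 to 0.198 in control subcutaneous, 0.170 to 0.368 in control visceral, 0.0182 to 0.0284 in high fat subcutaneous and 0.0293 to 0.0513 in high fat visceral fat. bta-miR-486 was higher in visceral fat on both diets (0.68 and 0.73, limma adjusted p = 0.00205 and 0.000851).

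On the array of high fat steer 202 in subcutaneous fat, the muscle miRNAs were not the only ones at an end of their group. Of the 4 immune cell miRNAs listed, bta-miR-142, bta-miR-155 and bta-miR-223 had their highest scaled level there and bta-miR-150 was not detected. bta-miR-223 was at a scaled log2 level of -0.47 against -3.61 to -1.74 on the other 7 arrays. The summed scaled intensity of that list was 0.223 to 0.992 in the group, with a median of 0.289 and the highest value in steer 202. All 3 fibroblast miRNAs (bta-miR-199a-3p, bta-miR-199a-5p and bta-miR-214) were highest there too, with a summed scaled intensity of 2.84 to 3.80 over the group. bta-miR-126 and bta-miR-126* of endothelium, bta-miR-145 of smooth muscle, and bta-miR-451 and bta-miR-486 of red blood cells were at their lowest of the group on this array. The part of these other cell types in the muscle miRNA levels of steer 202 was not tested.

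Markers of other cell types differed with diet as well, beside 41.6 and 42.1 percent of miRNAs called higher and 34.3 and 29.6 percent called lower. Both endothelial miRNAs were called higher in high fat steers in each depot, with a summed scaled intensity of 0.578 to 1.5 in control subcutaneous, 0.863 to 2.42 in control visceral, 3.57 to 4.84 in high fat subcutaneous and 5.09 to 8.23 in high fat visceral fat. Of the 2 smooth muscle miRNAs, 1 was called higher in high fat steers and none lower in each depot, and the summed intensity was 0.767 to 1.91, 1.34 to 2.73, 0.895 to 1.38 and 1.45 to 3.31 in the same order of groups. bta-miR-145 did not pass for diet (-0.12 and -0.01). Between depots bta-miR-126 (0.66 and 0.57 on the control and high fat diets) and bta-miR-145 (0.56 and 0.67) were called higher in visceral fat, while bta-miR-126* and bta-miR-143 did not pass. Beyond vessels, bta-miR-142 of immune cells (4.24 and 4.08 in subcutaneous and visceral fat), bta-miR-451 of red blood cells (2.87 and 2.64) and bta-miR-199a-3p (1.45 and 1.38) and bta-miR-199a-5p (1.71 and 1.86) of fibroblasts were called higher in high fat steers too. Others of these lists were called lower: bta-miR-155 of immune cells (-1.24 and -1.57), bta-miR-486 of red blood cells (-2.61 and -2.56) and bta-miR-214 of fibroblasts (-1.79 and -1.71). bta-miR-223 of immune cells was called lower in visceral fat alone (-0.72). These directions depended on the scaling. Without scaling, bta-miR-155 (1.67 and 0.85), bta-miR-214 (1.13 and 0.71) and bta-miR-145 (2.79 and 2.41) were called higher in high fat steers. So was bta-miR-223 in visceral fat (1.70). The median of all miRNAs in that fit was 2.41 in subcutaneous and 1.63 in visceral fat. bta-miR-142 was detected on no control array, so its differences are against the floor. bta-miR-126* of endothelium, bta-miR-143 of smooth muscle and bta-miR-451 were each detected on 21 arrays, among them every high fat array. Most of their control arrays are at the floor, so their diet differences rest largely on a set value. The part of these markers in the miR-1 difference was not tested.

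miR-206 appeared on 3 arrays, which had no group in common. It was detected in control subcutaneous fat of steer 108 (3.59), in control visceral fat of steer 307 (20.4) and in high fat subcutaneous fat of steer 202 (5.73). On the array of steer 307, 17 of its 20 spots were well above background and both probes read it, at 12.1 and 8.38, while miR-1, miR-133a and miR-133b were not detected, the lowest detected intensity of that array being 5.11. The liver miRNA bta-miR-122 was also detected on that array, at 42.6, and otherwise on 2 high fat visceral arrays, at 434 in steer 109 and 7.12 in steer 411. The part of other tissue in the sample of steer 307 was not tested. On the array of steer 108 miR-206 was accompanied by miR-133b (3.71), and 2 of its 20 spots were well above background. On the array of steer 202 miR-206 came with the highest miR-1, miR-133a and miR-133b of that group, but 0 of its 20 spots were well above background.

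miR-499 was detected on 1 of 32 arrays, high fat visceral fat of steer 302, at 5.68, with 1 of 20 spots well above background. That array was the brightest of its group by summed intensity (285864) and had the highest unscaled miR-1 (133), miR-133a (21.0) and miR-133b (45.8) of the visceral samples. After scaling it was the highest of the high fat visceral arrays for miR-133b (-5.65), with control visceral arrays above it, but not for miR-1, where steer 411 was highest at -3.90. Neither miR-206 nor miR-499 had enough detected arrays for a test of level, and neither passed the test of detection in any of the 4 comparisons.

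Kidney miRNAs, of interest because the visceral depot surrounds the kidney, were not detected on any of the 16 control arrays (bta-miR-192 and bta-miR-194), and their summed scaled intensity was 0.0139 to 0.0267 in high fat subcutaneous and 0.0179 to 0.0379 in high fat visceral fat. bta-miR-194 was called higher in high fat steers (1.43 in subcutaneous and 1.97 in visceral fat) and, on that diet, higher in visceral fat (0.54, limma adjusted p = 0.00202). It passed the minimum of 8 detected arrays through the high fat diet alone, so its control level is the floor rather than a measured one. The part of kidney tissue in the depot values was not tested. Of the 3 fat miRNAs, all 3 were detected on every array of each group. bta-miR-103 (0.72 and 0.77 in subcutaneous and visceral fat) and bta-miR-107 (1.25 and 1.27) were called higher in high fat steers. bta-miR-378 was called lower in subcutaneous fat (-0.64) and did not pass in visceral fat (-0.04), but without scaling it was called higher (2.27 and 2.38). It was higher in visceral fat on the control and high fat diets (0.89 and 1.49). The 2 brain miRNAs on the array were detected on no array.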

How the data were processed

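Total RNA of 32 fat samples was hybridized with a single dye (Cy3), 1 array per sample, and the labels gave each sample's diet, depot and steer. Per the file headers, the authors extracted each array with Feature Extraction and deposited the background-subtracted intensity of each of 20 spots per miRNA, the total intensity of each miRNA (0.1 where not detected) and a detection call, not scaled between arrays. The authors also deposited log2 values shifted to the 75th percentile in GeneSpring. Those rows carry numbers, and all 244 features above 0 were matched to 1 miRNA by value, within 1.59e-06.

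Intensities were divided by the array's 75th percentile over the 91 miRNAs detected on all 32 arrays, and values were floored at 0.00671 (log2 -7.22), which is the lowest detected scaled value of the middle array. At least 8 arrays detected 240 miRNAs, of which 233 were not at the floor throughout and were fitted with limma 3.58.1 in R 4.3.3 (4 groups, two-sided, Benjamini-Hochberg, adjusted p under 0.05). Detection was compared with Fisher's exact test, without pairing the depots of a steer, adjusted over the miRNAs that could differ. Spread, correlations and likeness between miRNAs used scaled values, those in single groups without the floor. A bound set an undetected array to its lowest detected value or to the miRNA's own probe signal, whichever was higher. Values over several arrays are limited by their number, and 0 spots were saturated.

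The miRNAs and the marker lists were chosen with earlier results of these data known. All values of the 5 muscle miRNAs are named, other miRNAs by their list, and the 3 most like each member. Steer numbers pair the depots because both samples came from 1 animal. The median correlation of paired deviations was -0.0639 over 16 pairs (-0.391 to 0.652) and -0.0132 over 112 pairs of different steers. Alternatives were other scalings (the median of the 91, quantile, summed intensity, all miRNAs on the array, spike-ins, bta-miR-181a, none), spot intensities, normexp with an offset of 50 on median spot intensities, other floors, the deposited values, no filter, position on the slide or steer as a block, and the methods' t-test. Added after seeing the data were leaving out the subcutaneous array of control steer 108 and leaving out 3 high fat visceral arrays with the lowest labelling spike-ins. The fit was checked on simulated data without a floor or a detection limit, so the check does not cover groups at the floor. No mature sequence is printed, as none was in the sources used here.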

Additional observations from a re-analysis of the deposited data

Results flagged for a closer look

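In 12 groups of 8 searched, 6 values lay far from the rest of their group by Dixon's criterion, the gap to the nearest array over the range of the group. Chance flags about 1 group in 20, and in groups with 7 arrays at the floor any array above it is marked.

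In control visceral fat, steer 405 was at a scaled log2 level of -4.59 for miR-1 and -5.41 for miR-133a, the other 7 arrays being at the floor in both. The same steer had 0 of these detected in subcutaneous fat. miR-206 was at -6.13 in control subcutaneous fat of steer 108 and at -2.91 in control visceral fat of steer 307, each with 7 arrays at the floor. In high fat subcutaneous fat, steer 202 was at -5.37 for miR-133a and at -4.07 for miR-133b, whereas its miR-1 of -2.83 was not marked, since the other steers spread further.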

How the results depend on the processing

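Counts of the 3 muscle miRNAs called between diets depended on the scaling. In subcutaneous fat 1 was called (miR-1, higher). The count was 0 with the percentile over all miRNAs on the array and with the methods' t-test with Bonferroni correction, 3 without scaling, with the labelling spike-ins and with bta-miR-181a (all higher), 3 with spot intensities (1 higher, 2 lower) and 3 with normexp (all lower). In visceral fat it was 1 and became 0 with the percentile over all miRNAs, 3 without scaling, with spike-ins and with bta-miR-181a (all higher), 3 with spot intensities (1 higher, 2 lower) and 3 with normexp (all lower). By spot intensities miR-133a was at -1.26 and -0.70 and miR-133b at -0.68 and -0.63 in subcutaneous and visceral fat. With normexp miR-1 was at -1.66 and -1.25, miR-133a at -2.14 and -1.61, and miR-133b at -2.03 and -1.56. Between depots on the high fat diet, 0 were called, 2 with spot intensities and 3 with normexp. The cause was not tested.

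The detection test called 2 in subcutaneous fat and 1 with deposited values above 0, and in visceral fat 1, or 0 where the call was a probe well above background. Deposited values above 0 set a higher limit on high fat arrays than on most control arrays. Leaving out each steer in turn, the calls by level stayed at 1 in subcutaneous fat, and were 1 to 2 in visceral fat and 0 to 1 between depots on the high fat diet, and those by detection 2 to 3 in subcutaneous and 1 to 3 in visceral fat. The miR-1 diet difference was 1.67 to 2.24 and 2.10 to 2.54. By detection in visceral fat, 2 passed without steer 211, 303, 410 or 412 and 3 without steer 405. With the steer as a replicate block 0 muscle miRNAs were called between depots on either diet and 0 for the difference between the diets in the depot comparison, as without it. A steer had 1 diet, so the block was not run between diets. Without the subcutaneous array of control steer 108, or the 3 dim high fat visceral arrays, the counts of calls by level were as reported. Keeping only miRNAs detected on all 32 arrays left no muscle miRNA to test. miR-133a, miR-206 and miR-499 lie near the detection limit, which after scaling is higher on control arrays.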
